A study of Homo sapiens with 4 samples.

Results

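The cytosolic ribosomal protein genes were examined in MDA-MB-231 cells, an established triple-negative breast cancer line, given vehicle or MGH-CP1. Members were the rows typed as protein-coding whose symbol has the form of a ribosomal protein name (RPL or RPS with a number, RPSA, RPLP0, RPLP1 or RPLP2), outside chromosome Y and with a mean of at least 1 FPKM (reads of a gene scaled to its length and to the size of the library) over the 4 libraries. This gave 80 genes of 48162 listed, 49 counted with the large (60S) and 31 with the small (40S) subunit by the RPL or RPS prefix alone. RPL7L1 is among the 49. The series title calls MGH-CP1 an inhibitor of TEAD palmitoylation, the lipid modification that TEAD transcription factors carry. One group of 2 libraries came from cells given vehicle, whose solvent the labels do not name, and the other 2 from cells given MGH-CP1 at 10 µM, in both cases for 24 h. All libraries come from the same cell line, with 1 dose and 1 time.

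Members were chosen by name and by their mean FPKM over all 4 libraries, so their levels are given as description. Membership was proposed with fold changes of these data known. The lowest member was RPL17 at 1.14 FPKM, and the first gene under the limit was RPL36A at 0.276 FPKM. Other rows left out for low values, among them RPL3L, RPL10L and a further row named RPL26, were all under 0.03 FPKM on average, and 2 rows on chromosome Y were left out as well. RPL17 was the only member with a group mean under 1 FPKM, which was its MGH-CP1 mean (0.959 FPKM).

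Ribosomal proteins form the ribosome together with ribosomal RNA. They are made in the cytoplasm, imported into the nucleolus, assembled there into subunits and exported. Most of their mRNAs begin with a terminal oligopyrimidine (TOP) tract, a run of C and T letters at the first transcribed base that links their translation to mTORC1 through LARP1. Several ribosomal proteins have work outside the ribosome: RPL5, RPL11 and RPL23 can bind the ubiquitin ligase MDM2 and restrain it. A few have paralogs, related genes such as RPL22L1, RPL26L1, RPL39L and RPS27L, while RPL7L1 encodes a nucleolar assembly protein.

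The starts of 12 genes are shown because most members share the TOP tract and because the listed starts of the paralogs differ from each other in it. They include called and uncalled members. Each line holds 15 bases before and 15 bases from the RefSeq start (GRCh38.p14), read 5′ to 3′ on the gene's strand. Capitals mark the run of C and T that opens the transcript where it begins with C and at least 4 more pyrimidines, and lines without capitals lack it. Where RefSeq lists several starts, one with the run was taken if there was any, and otherwise the first.
RPS6: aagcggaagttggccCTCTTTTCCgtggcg
RPL21: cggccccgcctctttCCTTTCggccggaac
RPL7A: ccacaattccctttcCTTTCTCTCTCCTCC
RPLP0: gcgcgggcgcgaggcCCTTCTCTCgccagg
RPL28: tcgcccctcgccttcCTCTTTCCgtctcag
RPL22: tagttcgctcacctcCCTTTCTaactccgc
RPL22L1: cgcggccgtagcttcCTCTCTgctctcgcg
RPL26: aagcagcgtgtagttCTCTTCCCTTTTgcg
RPL26L1: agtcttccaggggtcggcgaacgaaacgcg
RPS27: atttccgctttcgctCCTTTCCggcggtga
RPS27L: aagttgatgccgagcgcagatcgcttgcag
RPL7L1: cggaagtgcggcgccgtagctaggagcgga

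The RPS6 window is chr9:19380222-19380251 (minus strand), that of RPL22L1 is chr3:170870181-170870210 (minus strand) and that of RPL26L1 is chr5:172958714-172958743 (plus strand). RefSeq starts were listed for 65 of the 80 members, and 46 of these (70.8%) had the pyrimidine run, against 5.14% of all 27305 symbols in the table and 7.57% of the symbols tested here. The run has 6 bases in RPL22L1 and 7 in RPL22, whereas the starts shown for RPL26L1, RPS27L and RPL7L1 lack it. In all 19 listed members were scored as lacking it at the listed first base, among them RPL6, RPS7, RPL4 and RPL9, and not only the paralogs. A run that opens after the listed first base was counted as absent, as at RPS28, where the pyrimidines follow an A. The score therefore does not show that a transcript lacks the tract. The letters GGAATG, a core read by TEAD proteins, were searched on both strands from 250 bases before to 50 after the start. They stood in 5 of the 65 members (7.69%; RPL6, RPS27A, RPL7A, RPL10 and RPL38, chosen after the search), against 16.7% of all symbols and 14.99% of the symbols tested. The ETS-type letters CCGGAAG, which share GGAA with the former, stood in 24 (36.9%) against 12.2% of all symbols and 23.6% of the symbols tested. The E-box letters CACGTG stood in 5 (7.69%) against 8.77% of all symbols and 12.8% of the symbols tested. The YY1-type letters AAGATGG stood in 9 (13.8%) against 7.11% and 10.0%. These are matches of letters in a window, not sites.

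The libraries held 16790645 to 18485701 reads, recovered from the deposited values. The cell line's markers VIM, CD44, AXL, CAV1 and MSN had means of 178 to 420.4 FPKM, while ESR1 and PGR were at or near 0, CDH1 was at 0.666, and ERBB2 and EPCAM were at 25.4 and 8.55 FPKM. Of the markers of other cells, 4 of 7 fibroblast, 5 of 6 immune and all 3 listed endothelial genes averaged under 1 FPKM. Their summed levels were 7.57 and 4.9999 FPKM in vehicle and 6.31 and 5.87 with MGH-CP1 for fibroblasts, 3.29 and 3.34 against 3.23 and 2.91 for immune cells, and 0.516 and 0.888 against 0.457 and 0.615 for endothelium, with PTPRC, CD3E, CD68, DCN, CDH5 and VWF at 0 or averaging under 0.05 FPKM. The share of reads from the mitochondrial genome was 0.676% and 0.645% in vehicle and 1.81% and 1.54% with MGH-CP1. The nuclear RNA NEAT1 read 2.77 and 3.49 FPKM in vehicle and 7.44 and 7.21 with MGH-CP1, and MALAT1 read 12.1 and 12.04 against 17.0 and 23.4 FPKM. The part of these cells and RNAs in the results was not tested. Nothing in the labels says that replicates were separate cultures, so the p-values reflect variation among 4 libraries that could be purely technical.

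As a family, ribosomal protein mRNA was close to level between the groups, and the vehicle libraries differed from each other by more than the groups did. Members took 4.02% and 3.59% of all reads in vehicle, against 3.62% and 3.47% after treatment. Vehicle replicate 1 stood highest and vehicle replicate 2 lay between the treated libraries, so the groups overlapped (exact permutation test, two-sided, p = 0.667, where 2 against 2 libraries cannot go below 0.333). The difference of the means was -0.265 percentage points, and it was -0.0494 without vehicle replicate 1 and -0.48 without vehicle replicate 2. The large subunit genes took 2.56% and 2.31% in vehicle against 2.28% and 2.18% with MGH-CP1, with both treated values just under both vehicle values (exact permutation test, two-sided, p = 0.333, the lowest possible). The small subunit genes overlapped, at 1.46% and 1.29% against 1.34% and 1.29%. In bulk RNA, fewer cells with these mRNAs and less mRNA per cell cannot be told apart.

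**Figure D1:**
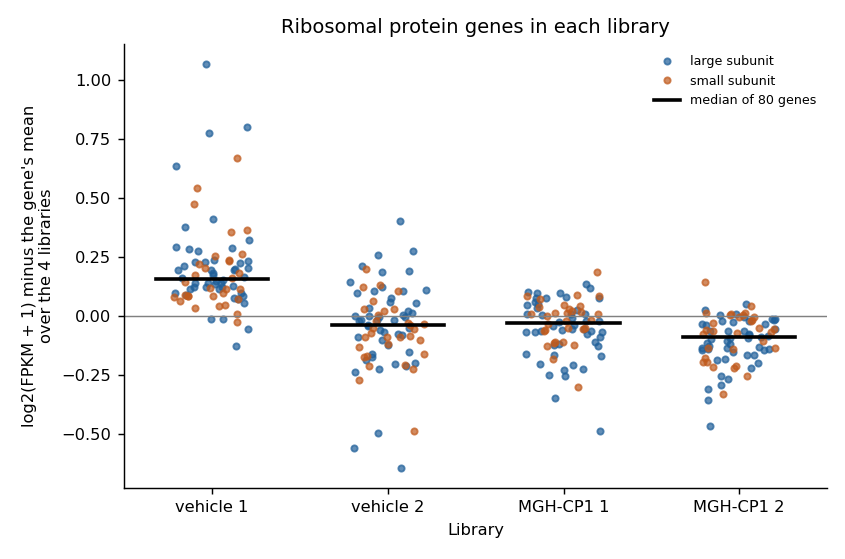
Each point is 1 of the 80 ribosomal protein genes, and the vertical axis is its log2(FPKM + 1) value in a library minus its mean over the 4 libraries; bars are medians. The median was 0.16 in vehicle 1, -0.04 in vehicle 2, -0.03 in MGH-CP1 1 and -0.09 in MGH-CP1 2, and the widest spread is within vehicle.

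The excess in vehicle replicate 1 ran through the family. Of the 80 members 73 were higher there than in vehicle replicate 2, by a median of 0.18 on the log2 scale, and 63 had their highest value of the 4 libraries there. Over all 11790 genes tested, 48.6% were higher in vehicle replicate 1, and among the 456 other tested genes of at least 100 FPKM 72.4% were, by a median of 0.06. The residual SD within groups had a median of 0.0994 (log2 scale) over members, 0.0551 over those other abundant genes and 0.0759 over all genes. The treated libraries were closer, with 69 members higher in MGH-CP1 replicate 1 by a median of 0.07.

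The vehicle libraries differed by over 0.5 on the log2 scale in 9 members, of which 3 are given here, named after their values were seen. RPL23A, which sits near the exit of the peptide tunnel, read 57.3 and 17.9 FPKM in vehicle and 22.4 and 22.3 with MGH-CP1. RPL30, another large subunit gene, read 122 and 45.0 against 67.6 and 67.8. RPS29, a small zinc-binding protein of the 40S head, read 217 and 129 against 192 and 200.1. The RPS29 row overlaps RN7SL1 on the opposite strand, which averaged 1018 FPKM, and strand use in counting is not given. In these 3 the treated pair lay inside the vehicle pair, whereas in RPL26 both treated values, and in RPS10 and RPS23 1 of them, lay under both vehicle values. Across members the difference between the vehicle libraries had a Pearson correlation of -0.24 with mRNA length, and across all genes with a length -0.33 (n = 80 and 10670), which are descriptions over genes that share the same libraries.

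Tested gene by gene, a minority of ribosomal protein mRNAs were called lower with MGH-CP1 and none was called higher in the reported fit. Limma on log2(FPKM + 1), adjusted over all 11790 genes, called 19 of 80 members lower (23.75%), which is close to the 25.1% of all genes called lower. It called 0 higher, where 20% of all genes were. That 0 depended on the setting and on vehicle replicate 1. With all libraries kept, 1 member was called higher with 75th percentile scaling, 2 with GC correction and 6 with mRNA length correction. At an unadjusted p under 0.05, 24 members were lower and 1 higher (RPS28). Voom on the recovered reads, adjusted in the same way, called 26 lower and 1 higher, where it called 3153 of all 11790 genes lower and 2607 higher. The median log2 fold change of the members was -0.13, beside -0.02 over all genes tested. This median depended on vehicle replicate 1, without which it was -0.01, and it reached -0.22 with another library left out. All 19 called members had both MGH-CP1 values under both vehicle values, as had 35 of 80 members (39.4% of all genes), and 4 members had both values over both (34.7% of all genes).

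**Figure D2:**
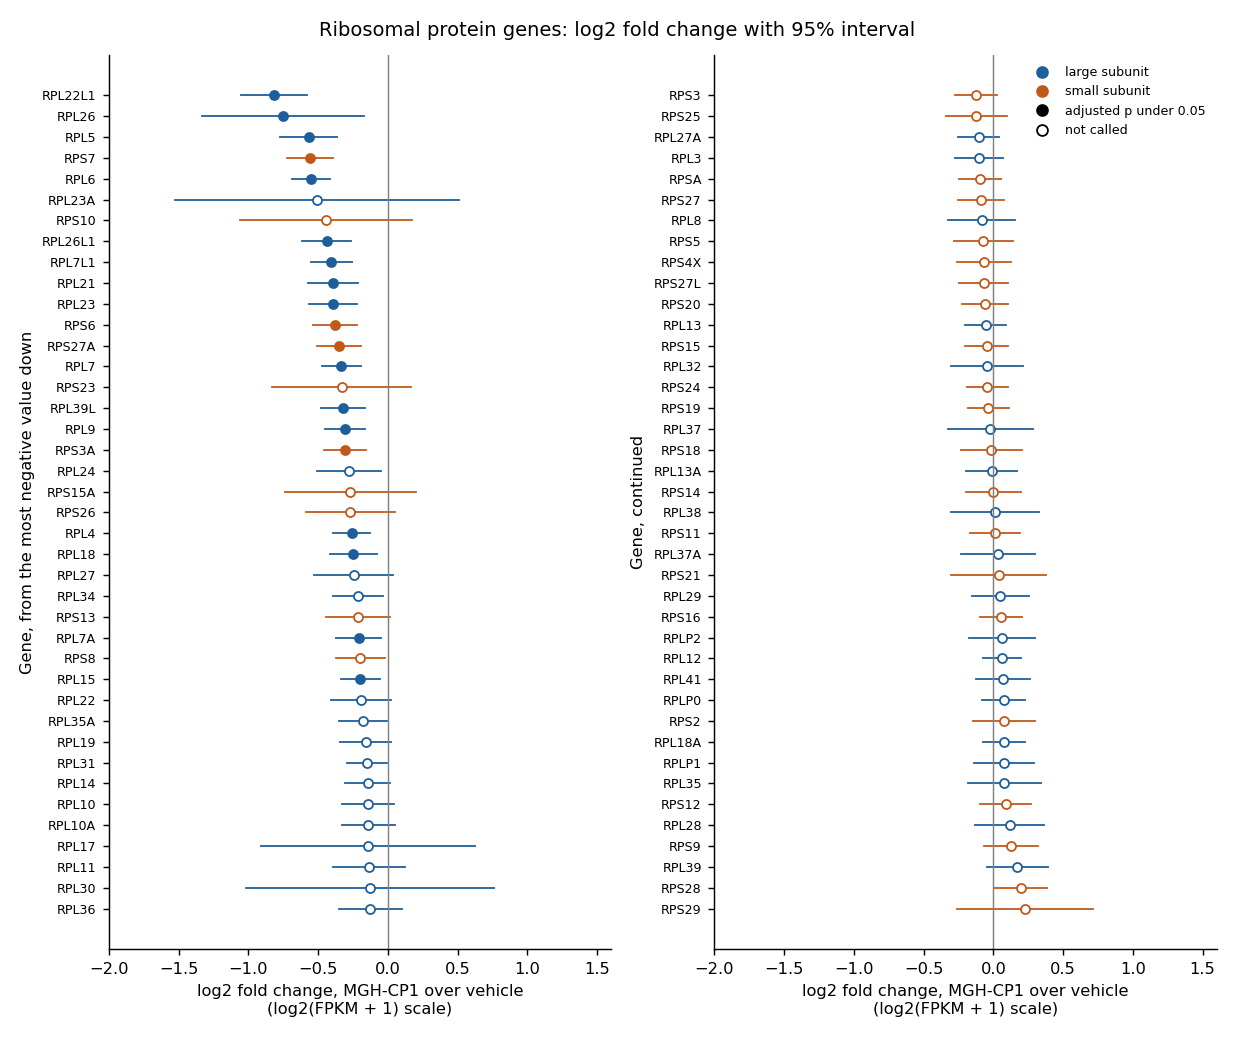
Log2 fold change of each of the 80 genes, MGH-CP1 over vehicle, on the log2(FPKM + 1) scale, with its 95% interval from limma; filled points passed the test at an adjusted p under 0.05. Values run from -0.82 (RPL22L1) to 0.23 (RPS29), and all 19 filled points lie below 0.

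The core proteins of the large subunit that fell include one partner of the 5S ribosomal RNA. RPL5 (ENSG00000122406, hg19 chromosome 1, 93297582 to 93307481, plus strand), which carries 5S RNA into the subunit together with RPL11, read 504 and 442 FPKM in vehicle and 335 and 302 with MGH-CP1. Neither pair overlapped the other, and the log2 fold change was -0.57 ± 0.09 (SE) with an adjusted p of 0.00184 in limma. RPL11, at 681 and 539 against 555 and 548 FPKM, had treated values inside the vehicle range and did not pass (log2 difference -0.14, 95% interval -0.39 to 0.12; limma, adjusted p = 0.35). Without vehicle replicate 1 its difference was 0.03. RPL23, which also binds MDM2, fell from 129 and 113 to 90.1 and 93.9 FPKM, or -0.39 ± 0.07 (limma, adjusted p = 0.00452).

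RPL6 (ENSG00000089009, chromosome 12, 112842994 to 112856642, minus strand), a protein of the subunit's solvent side, had the lowest adjusted p among members. It read 421.7 and 422.0 FPKM in vehicle and 292 and 284 with MGH-CP1, so that the vehicle values were almost equal, and fell by 0.55 ± 0.06 on the log2 scale (limma, adjusted p = 0.000379). It overlaps PTPN11 on the opposite strand, which averaged 71.8 FPKM, and strand use in counting is not given in the sources used here. RPL21 fell from 341 and 299.7 to 247 and 239 FPKM, and RPL7 from 406 and 391 to 316 and 316 FPKM. RPL21 has 48 pseudogene rows named after it, the most of any member, which held 1.48% of its reads and theirs together.

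Smaller falls were found in RPL9, RPL4, RPL18, RPL7A and RPL15, with log2 fold changes between -0.31 and -0.20. RPL4, whose long loop lines the peptide tunnel, went from 271 and 268 to 227 and 224 FPKM (-0.26 ± 0.06). RPL7A, at 756 and 727 against 658 and 624 FPKM, and RPL15, at 274 and 278 against 246 and 235 FPKM, passed by narrow margins (limma, adjusted p = 0.0421 and 0.0296). The call for RPL7A was lost in 8 of 17 alternatives and that for RPL15 in 7 of 17. RPL24 and RPL34, named after their values were seen, lay just outside the threshold (limma, adjusted p = 0.052 and 0.0521).

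In the small subunit 4 of 31 members fell, beside 25.1% of all genes tested, and in the large subunit 15 of 49. RPS7 (ENSG00000171863, chromosome 2, 3622795 to 3628509, plus strand), needed for early processing of 18S RNA, read 65.6 and 58.4 FPKM in vehicle and 41.0 and 42.4 with MGH-CP1 (-0.56 ± 0.07; limma, adjusted p = 0.000777). RPS6 (ENSG00000137154, chromosome 9, 19375713 to 19380252, minus strand), the substrate of the S6 kinases downstream of mTORC1, read 417 and 380.4 against 308 and 305 FPKM (-0.38 ± 0.07; limma, adjusted p = 0.00375). In both genes the groups stood apart by more than either pair's own gap. RPS27A, which is made as a fusion with ubiquitin, went from 353 and 333 to 278 and 260.2 FPKM, and RPS3A from 162 and 151 to 130 and 122 FPKM.

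Other small subunit genes of note did not pass. RPSA, also known as a laminin receptor, read 467 and 450.4 against 439 and 421 FPKM (log2 difference -0.09, 95% interval -0.24 to 0.06). RPS4X read 432 and 372 against 377 and 387 FPKM, and RPS18, the most abundant 40S member, 1293 and 1113 against 1225 and 1153 FPKM. The treated values of RPS4X and RPS18 lay within the vehicle range, and those of RPSA under both vehicle values. The sign of the difference for RPS4X and RPS18 turned with other scalings between libraries, to 0.0009 and 0.06 with scaling to the 75th percentile.

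The proteins of the stalk, which recruits translation factors to the ribosome, did not pass. RPLP0, the stalk base, read 715 and 733 FPKM in vehicle and 768 and 756 with MGH-CP1 (log2 difference 0.07, 95% interval -0.08 to 0.23; limma, adjusted p = 0.393). RPLP1 read 282 and 238 against 285 and 262, and RPLP2 464 and 380.4 against 452 and 426 FPKM. RPLP0 and RPL13A are often used as reference genes in quantitative PCR. RPL13A read 513 and 454 against 488 and 468 FPKM, a log2 difference of -0.01 with a 95% interval of -0.20 to 0.17, and its sign turned with median ratio scaling (0.01).

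The most abundant members per length, RPL8 and RPL35 beside RPS18, also showed overlapping groups. RPL8 read 1350 and 1125 against 1203 and 1125 FPKM, and RPL35 read 1105 and 885 against 1070 and 1020 FPKM. RPL3 and RPL10, which line the peptidyl transferase centre and the tRNA path, had log2 differences of -0.10 and -0.14 (limma, adjusted p = 0.286 and 0.177). RPL41, the smallest ribosomal protein, read 265 and 301 against 310.0 and 282 FPKM. Levels between genes rest on the deposited lengths, which were a median of 1.76 times the mRNA length (1.01 to 12.1 times), so genes with long rows such as RPL37 appear low.

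Of the 5 paralogs and related genes among the members, RPL7L1 included, 4 fell, beside 25.1% of all genes tested. RPL22L1 (ENSG00000163584, chromosome 3, 170582664 to 170588272, minus strand) had the largest fall of all members, from 4.55 and 4.51 to 2.27 and 2.02 FPKM, with at least 75 reads in a library (-0.82 ± 0.10; limma, adjusted p = 0.000711). RPL22, its partner, read 119 and 98.9 against 97.6 and 92.2 FPKM and did not pass (-0.19, 95% interval -0.41 to 0.02; limma, adjusted p = 0.123). The mean of RPL22L1 changed by -52.6% and that of RPL22 by -13.1%. Whether the members of a pair differed from each other was not tested.

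RPL26L1 fell from 28.1 and 27.8 to 21.7 and 19.1 FPKM (-0.44 ± 0.07; limma, adjusted p = 0.003). RPL26 itself, with as few as 50 reads, read 8.48 and 4.28 against 2.89 and 3.53 FPKM (-0.75 ± 0.25; limma, adjusted p = 0.0416), and its call was lost in 6 of 16 alternatives. Its value was -0.33 without vehicle replicate 1 and -1.18 without vehicle replicate 2. The vehicle pair of RPL26 was wide, and its row shares its place with a further row named RPL26. RPL39L fell from 29.8 and 30.8 to 22.9 and 25.2 FPKM (-0.32 ± 0.07; limma, adjusted p = 0.00726), while RPL39 read 137 and 112 against 143 and 136 FPKM and did not pass (0.17, 95% interval -0.05 to 0.39). Without vehicle replicate 1 RPL39 was at 0.31 and was called higher (limma, adjusted p = 0.00178), as it was with GC or length correction, and without vehicle replicate 2 it was at 0.03. RPL7L1 fell from 219 and 237 to 171 and 172 FPKM (-0.40 ± 0.06; limma, adjusted p = 0.00192). RPS27L read 8.64 and 9.002 against 8.17 and 8.55 FPKM, and RPS27 436 and 412 against 416 and 382 FPKM; neither passed (limma, adjusted p = 0.485 and 0.349).

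**Figure D3:**
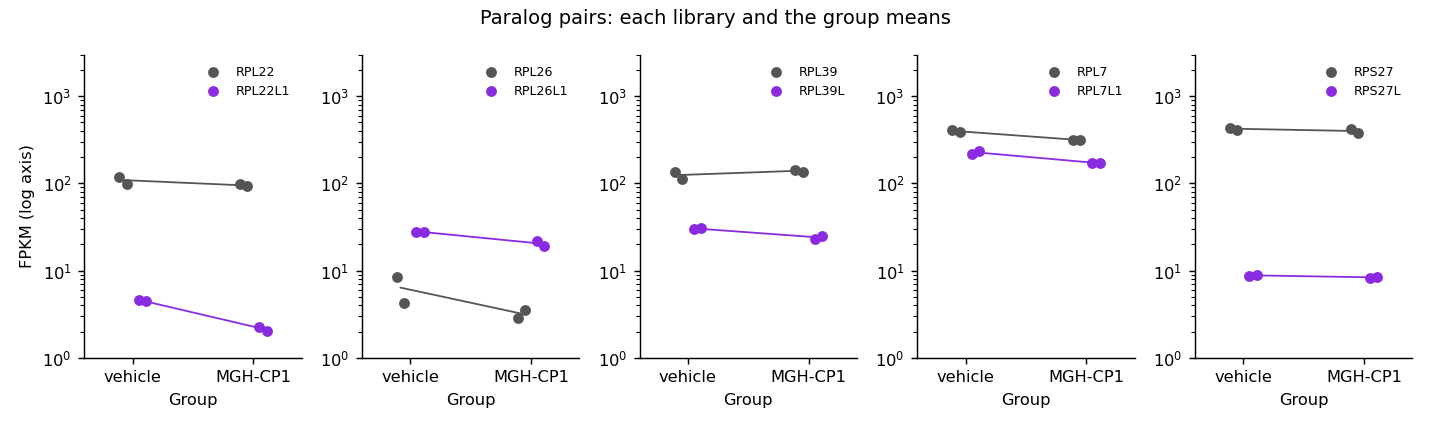
FPKM on a log axis for 5 pairs of related genes, with 1 point per library and a line between the group means. RPL22L1, RPL26L1, RPL39L and RPL7L1 are lower in both MGH-CP1 libraries than in both vehicle libraries, and RPS27L is nearly level.

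A few members have values that pseudogenes or neighbouring rows may share. Ribosomal protein mRNAs left many processed copies in the genome, and 619 pseudogene rows carry a member's name, with a median of 5 per member. In 76 members these rows held at most 3.75% of the reads of gene and copies together. The exceptions were RPL17 (61.5%), RPL23A (50.6%), RPS10 (19.6%) and RPL41 (14.15%). RPL17 read 2.19 and 0.456 FPKM in vehicle and 0.886 and 1.03 with MGH-CP1, from as few as 7 reads, and RPS10 read 5.54 and 2.52 against 2.81 and 2.26 FPKM. RPL17, RPS10 and RPS15A overlap other rows on the same strand that are listed at 0. RPL26 overlaps on the same strand the further row of its name, which averaged 0.0142 FPKM. What such overlaps did to the levels of these genes was not tested. With the pseudogene reads added to each member the same 19 genes were called, and the difference for RPL17 turned from -0.14 to 0.05.

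Most members that were called lower had mRNAs poor in G and C. By GC content of their mRNAs (GENCODE 29 transcripts, 40.99% to 62.4%), 13 of the 27 members of lowest GC were called lower, 5 of the 26 of middle GC and 1 of the 27 of highest GC, which was RPL18. The median log2 fold changes of these groups were -0.31, -0.14 and 0.01. Over all genes tested in the same GC ranges 907 of 2900, 445 of 1560 and 743 of 3439 were called lower, and the medians were -0.07, -0.05 and 0.04. Across the 80 members the Pearson correlation of GC content with fold change was 0.49 (Spearman 0.53), and across 10670 tested genes it was 0.20 (0.20), both descriptions over genes from the same 4 libraries. Against vehicle replicate 1 alone the member correlation was 0.43 and against vehicle replicate 2 alone 0.36. Between the vehicle libraries the difference had a correlation with GC content of -0.09 across members and 0.39 across all genes, and the part of GC content in the results was not tested.

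**Figure D4:**
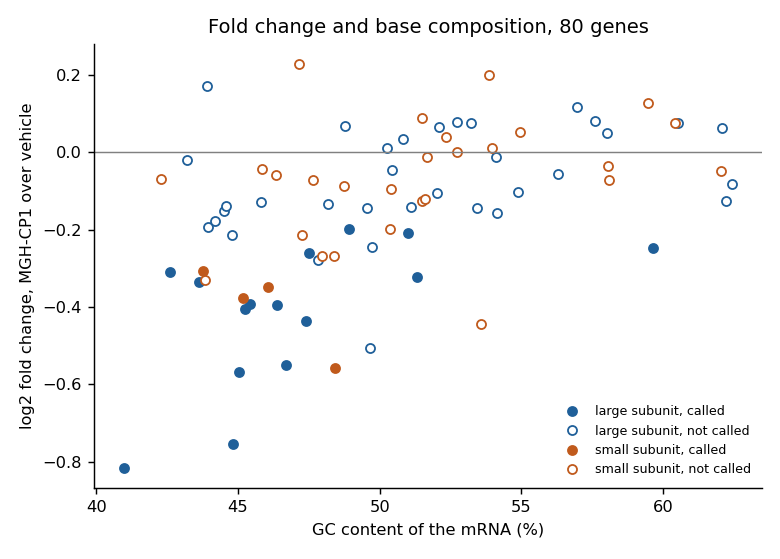
GC content of the mRNA on the horizontal axis and log2 fold change, MGH-CP1 over vehicle, on the vertical axis, for the 80 genes; filled points were called lower. Filled points crowd below 52% GC, with RPL18 at 59.7% apart.

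When a smooth curve over GC content was taken out of each library before the fit, an alternative chosen after seeing the data, 20 members were called lower, 18 of them among the 19, and 2 higher (RPL39 and RPS28). A curve over mRNA length instead gave 23 lower, again with 18 of the 19, and 6 higher. Members that hold snoRNA genes in their introns (28, by GENCODE 29) had 6 called lower, and the other 52 had 13. Members with the pyrimidine run at the listed first base had 8 of 46 called lower, and listed members scored as without it 7 of 19. A row of at least 1 FPKM lay on the opposite strand of 23 members, 7 of them called lower, as were 12 of the other 57. Over all genes tested 25.1% were called lower. The differences between these groups of members were not tested.

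**Figure D5:**
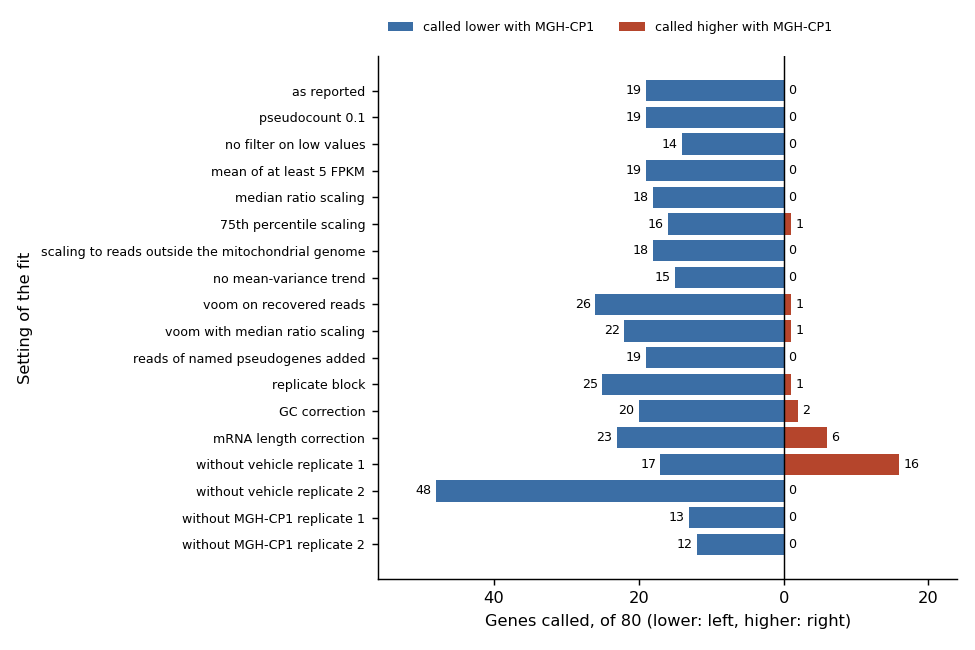
Number of the 80 genes called lower (bars to the left) and higher (bars to the right) with MGH-CP1 in the reported fit and in each alternative. Fits that leave out 1 library rest on a lone library in 1 group, so their bars are description only.

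Called members kept their call to differing degrees. RPL5, RPL6, RPL7, RPL7L1, RPL23, RPL26L1, RPS6 and RPS7 were called lower in all 17 alternatives, and RPL22L1 in all 16 in which it was tested. Across these alternatives RPL6 ranged from -0.57 to -0.48 and RPL5 from -0.66 to -0.47. Without vehicle replicate 1 all of the 19 but RPL26 and RPL7A were still called lower. Without MGH-CP1 replicate 1 the calls for RPL4, RPL7A, RPL9, RPL15, RPL26 and RPL39L were lost, and without MGH-CP1 replicate 2 those for RPL4, RPL7A, RPL15, RPL18, RPL26, RPS3A and RPS27A. Without vehicle replicate 1, RPL35, RPL39 and the stalk genes RPLP1 and RPLP2 stood at 0.24, 0.31, 0.20 and 0.20 on the log2 scale. Without vehicle replicate 2, RPL11, RPL17, RPL22, RPS4X and RPS10 stood at -0.30, -0.70, -0.33, -0.18 and -0.89. RPS28, named after its values were seen, was called higher without vehicle replicate 1 and in 6 alternatives that keep all libraries.

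Parts of the ribosome that the naming rule misses are given next. FAU, which encodes a small subunit protein fused to a relative of ubiquitin, RPL36AL, and GNB2L1, the gene of the scaffold RACK1, did not pass in limma (adjusted p = 0.548, 0.527 and 0.739). FAU read 97.0 and 63.6 FPKM in vehicle against 71.3 and 71.8, the same pattern of a high first vehicle library. Of 16 tested TOP mRNAs of other proteins, GNB2L1 again among them, 7 fell and 2 rose, where 25.1% of all genes fell and 20% rose. NPM1, a nucleolar chaperone, fell from 517 and 505 to 340.2 and 323 FPKM, and EEF2, the translocation factor, rose from 676 and 633 to 785 and 802 FPKM.

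Genes that serve ribosomal proteins before assembly included many that fell. Of 8 genes for dedicated chaperones and carriers 7 fell, with a median of -0.42 and none higher, against 25.1% of all genes lower. GRWD1, which accompanies RPL3, went from 21.2 and 19.2 to 11.8 and 11.5 FPKM, and BCCIP, which is linked to RPL23, from 27.3 and 28.1 to 17.5 and 17.3 FPKM. Of 15 factors of late assembly and export 11 fell, with a median of -0.50; MRTO4, which holds the place of the stalk in the nascent subunit, went from 38.5 and 37.9 to 17.7 and 20.2 FPKM. In GRWD1, BCCIP and MRTO4 both treated values lay under both vehicle values.

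Among 11 genes that govern ribosomal protein mRNAs 5 fell and none rose, where 25.1% of all genes fell and 20% rose. MYC, an activator of ribosome genes, read 58.3 and 54.4 FPKM in vehicle and 42.4 and 40.5 with MGH-CP1 (-0.43 ± 0.06). LARP1, which binds TOP mRNAs, read 103 and 102 against 88.8 and 89.8 FPKM, and MTOR 17.8 and 19.1 against 12.6 and 14.1 FPKM. EIF4EBP1, a translation repressor held off by mTORC1, went from 67.8 and 56.9 to 38.5 and 33.5 FPKM. MDM2, which several ribosomal proteins can bind, fell from 9.23 and 9.56 to 7.38 and 8.01 FPKM, and CDKN1A, an inhibitor of the cell cycle kinases, rose from 99.1 and 95.1 to 135 and 127 FPKM.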

How the data were processed

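RNA was measured in 4 libraries of MDA-MB-231 cells, 2 per group. Poly(A) RNA was captured with oligo-T beads, fragmented and copied from random hexamers, per the labels' protocols. The authors deposited 1 table of FPKM values with gene lengths on hg19. Base calling used CASAVA 1.8 and alignment STAR, per the submitters' processing notes; for the counter, its strand setting and the annotation, the sources used here name nothing. Values times length were whole multiples of 1 step per library (tolerance 0.001), which gave the reads.

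Limma 3.58.1 (R 4.3.3) was fitted to log2(FPKM + 1) of the 11790 genes whose mean reached 1 FPKM, with group as the term and a mean-variance trend. P-values were Benjamini-Hochberg adjusted over all genes, and calls made under 0.05. The fit was tested on simulated data with no shift, GC trend or length trend between libraries. That test does not speak for the differences between libraries seen among members. Fold changes on this scale understate low genes. GC content, mRNA lengths and snoRNA hosts came from GENCODE 29 by gene identifier (GRCh38), since the deposited table lists no snoRNA genes, and promoters from RefSeq. Coordinates are hg19 unless stated. Members, lists and tests were chosen with earlier results of these data known. Genes named are all called members, the 3 highest and 3 lowest by mean FPKM, and a set list with stalk, paralog, MDM2-binding and reference genes; other members named were chosen after their values were seen. Replicate numbers were not treated as pairs, since no label ties them. Alternatives were another pseudocount, filters, scalings between libraries, no trend, voom, added pseudogene reads, a replicate block, each library left out, and corrections for GC content or mRNA length. Tables and plots were made in Python 3.11.15 with matplotlib 3.10.9, scipy 1.17.1, numpy 2.4.6 and pandas 2.3.3. A few genes of the lists are not reported here.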

Additional observations from a re-analysis of the deposited data

How the results depend on the processing

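The 19 lower calls ran from 14 to 26 over the other settings, and over the fits that leave out 1 library they ran from 12 to 48, where the lone library of a group is assumed to vary like the others. Higher calls ran from 0 to 16 over those fits; 1 member was called higher with 75th percentile scaling, with voom, with voom and median ratio scaling and with the replicate block, 2 with GC correction and 6 with mRNA length correction, both chosen after seeing the data. The median ran from -0.218 to -0.00731 and the share of reads from -0.48 to -0.0494 percentage points when 1 library was left out. Nothing in the labels says that library numbers pair the 2 groups; the correlation of same-numbered deviations was 0.05 over all 11790 genes, 0.13 over the 10670 with a GC value, -0.18 over members and 0.32 over 449 other abundant genes, which does not settle it. The fit with the replicate block called 25 lower and 1 higher. No called member changed direction in any alternative. Among members not called, the sign turned for RPL13A with median ratio scaling (0.0112), 75th percentile scaling (0.0584), scaling outside the mitochondrial genome (0.00142), voom with median ratio scaling (0.0106), GC correction (0.00135) and length correction (0.0414). It turned for RPS18 likewise (0.0109, 0.0582, 0.00110, 0.0101, 0.0248 and 0.0364), for RPS4X with 75th percentile scaling (0.000899), for RPL17 with pseudogene reads (0.0530), and for RPLP2 (-0.0494) and RPS27L (0.0145) with GC correction. Leaving out 1 library gave RPL11 -0.304 to 0.0344, RPL13A -0.101 to 0.0746, RPL17 -0.704 to 0.427, RPL41 -0.0260 to 0.161, RPL8 -0.214 to 0.0485, RPS10 -0.891 to 0.00485, RPS18 -0.122 to 0.0946, RPS4X -0.178 to 0.0364, RPL35 -0.0804 to 0.239, RPLP1 -0.0440 to 0.200 and RPLP2 -0.0823 to 0.205. The cause of these changes was not tested. RPL17, RPL22L1, RPL26 and RPS10 have no value among genes of at least 5 FPKM.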
